A study of Mus musculus with 4 samples.

Results

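Genes of protein quality control and stress were examined for H3K23pr, a histone mark in which lysine 23 of H3 carries a propionyl group. The set holds 42 of the 21887 mouse protein-coding genes on assembled chromosomes, chosen by name for their roles in the unfolded protein response (UPR), ER-associated degradation (ERAD), heat shock, autophagy and the oxidative stress response. All 42 were found in RefSeq's gene table for GRCm38.p6, which shares the coordinates of mm10, and peaks were assigned from 5 kb before to 5 kb after each gene. The mark was mapped by chromatin immunoprecipitation and sequencing (ChIP-seq) in liver of male C57BL/6 mice. The control, called WT as in the sample titles, was RPN11 flox/flox, and the knockout, called KO, carried an RPN11 knockout restricted to hepatocytes, while the other cells of the liver keep the gene. RPN11, the product of Psmd14, removes ubiquitin chains at the proteasome. Each genotype had 1 immunoprecipitated (IP) library and 1 input, so no difference below has a replicate check and no test between the genotypes was made. The Cre line, the age of the mice and any pooling of animals are not given in the sources used here. Psmd14 itself, with the same flanks, had 7 WT and 10 KO peaks, which do not check the knockout, since the floxed part is not given either. In whole liver, fewer cells with the mark and less of the mark per cell cannot be told apart.

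In the UPR, unfolded proteins in the endoplasmic reticulum (ER) activate 3 membrane sensors. ATF6 is cut to release a transcription factor, PERK (Eif2ak3) slows translation by phosphorylating eIF2alpha, which favours ATF4, and IRE1 (Ern1) splices the messenger RNA of Xbp1. Their targets include the ER chaperones and the ERAD machinery, which pulls misfolded proteins back to the cytosol for the proteasome, and hepatocytes, which secrete much protein, rely on them heavily. HSF1 drives the cytosolic heat shock genes, TFEB the genes of autophagy and lysosomes, and NRF2 (Nfe2l2), held by KEAP1, the antioxidant genes.

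Stress responses act through short elements in promoters, and those found here are shown first because only 1 of the promoters carried an H3K23pr peak. A RefSeq table gave the promoter, from 250 bases before to 50 after the annotated start, for 36 of the 42 genes (40 promoters). Atf6, Hsf1, Hspa8, Hsp90aa1, Hsp90ab1 and Becn1 were not matched. The ER stress response element (ERSE) was searched on both strands as CCAAT followed by any 9 bases and then CCACG. It was in 8 of the 40 promoters, from 8 of the 36 genes, and in 39 of all 32851 promoters of the table, 0.119%. The genes were chosen in part for their roles in the UPR, so this contrast is not an independent finding. The 8 genes were 6 ER chaperone or folding genes together with Dnajc3 and the ERAD ligase gene Syvn1. Their sites in GRCm38.p6 follow, each read on the strand given, with the CCAAT and CCACG blocks in capitals.
Hspa5 (chr2:34772025-34772043, plus strand): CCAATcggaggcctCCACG
Hsp90b1 (chr10:86705638-86705656, minus strand): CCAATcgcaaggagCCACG
Hsp90b1 (chr10:86705533-86705551, plus strand): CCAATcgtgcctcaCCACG
Calr (chr8:84847075-84847093, plus strand): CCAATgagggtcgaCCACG
Canx (chr11:50325800-50325818, minus strand): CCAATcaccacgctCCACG
Pdia6 (chr12:17266491-17266509, plus strand): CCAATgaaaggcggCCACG
Creld2 (chr15:88819520-88819538, minus strand): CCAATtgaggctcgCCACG
Dnajc3 (chr14:118937827-118937845, plus strand): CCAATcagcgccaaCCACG
Syvn1 (chr19:6046532-6046550, plus strand): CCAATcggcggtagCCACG

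None of these 9 sites, and none of the 39 ERSE promoters of the table, lay under a peak of either list. Peaks in the 300 bp promoter window were rare at all genes, in 0.515% of the 17492 protein-coding genes with a promoter in WT and 0.217% in KO, so most genes had an empty promoter. Of the 36 stress genes with a promoter, 1 held a WT peak there and 0 a KO peak. That gene was Trib3, which encodes a pseudokinase induced by ATF4 and CHOP that damps the response. The 250 bases before its start are shown, with the 91 bases under the WT peak in capitals (chr2:152344061-152344310, minus strand, GRCm38.p6).
Trib3: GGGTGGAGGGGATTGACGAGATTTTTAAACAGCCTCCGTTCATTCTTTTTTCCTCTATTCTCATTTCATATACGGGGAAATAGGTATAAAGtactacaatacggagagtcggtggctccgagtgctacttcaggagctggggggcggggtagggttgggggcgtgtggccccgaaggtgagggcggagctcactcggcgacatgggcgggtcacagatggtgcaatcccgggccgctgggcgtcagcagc

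The peak covered the far end of this window and came no nearer than 160 bp to the start. At its summit 5 IP fragments overlapped, with a fold of 3.45 over the local background of the peak caller. Such folds, and the p and q behind the ranks below, were deposited by the authors and only describe or filter peaks within a list. Other response elements were searched on both strands in the same promoters. The amino acid response element, TGATGNAAN, through which ATF4 acts, was in 5 of 36 genes (Asns, Atf3, Chac1, Herpud1 and Trib3) and in 3.95% of all promoters. The antioxidant response element, TGACNNNGC, was in 10 of 36, Nfe2l2 among them, and in 12.4% of all. A heat shock element of GAA, TTC and GAA with 2 bases between the blocks was in Hspd1 and in 0.603% of all, and the UPR element TGACGTGG was in Vcp and in 0.676%. The CLEAR element GTCACGTGA, bound by TFEB, was in Calr and in 0.782%. The antioxidant element shared bases with CLEAR in Calr and with the UPR element in Vcp. These matches are letters in a window, not measured binding. The 40 promoters were also richer in G and C than the table, with a median of 63.3% against 52.7% over all 32851.

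Peaks were counted in the gene and 5 kb on each side. Of the 42 genes, 18 had at least 1 WT peak, 42.9% against 47.7% of all protein-coding genes, and 13 had a KO peak, 31.0% against 33.3%. Peaks of both lists were present in 8 genes (24.3% of all genes), WT peaks alone in 10 (23.4%), KO peaks alone in 5 (9.05%) and no peak of either list in 19 (43.3%). These shares lay near those of all genes. The median number of peaks was 0 in both lists, for the 42 genes and for all genes. The windows of the 42 genes, at a median of 23.5 kb, were somewhat shorter than the 27.2 kb of all genes. At the shares found among genes of like window length (within 10%), 17.9 of the 42 would hold a WT peak, 11.5 a KO peak and 7.63 both. In the same way, the mean peak numbers of genes of like length, summed over the 42, came to 36.2 WT and 25.0 KO peaks, and such sums are given for each group below.

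**Figure D1:**
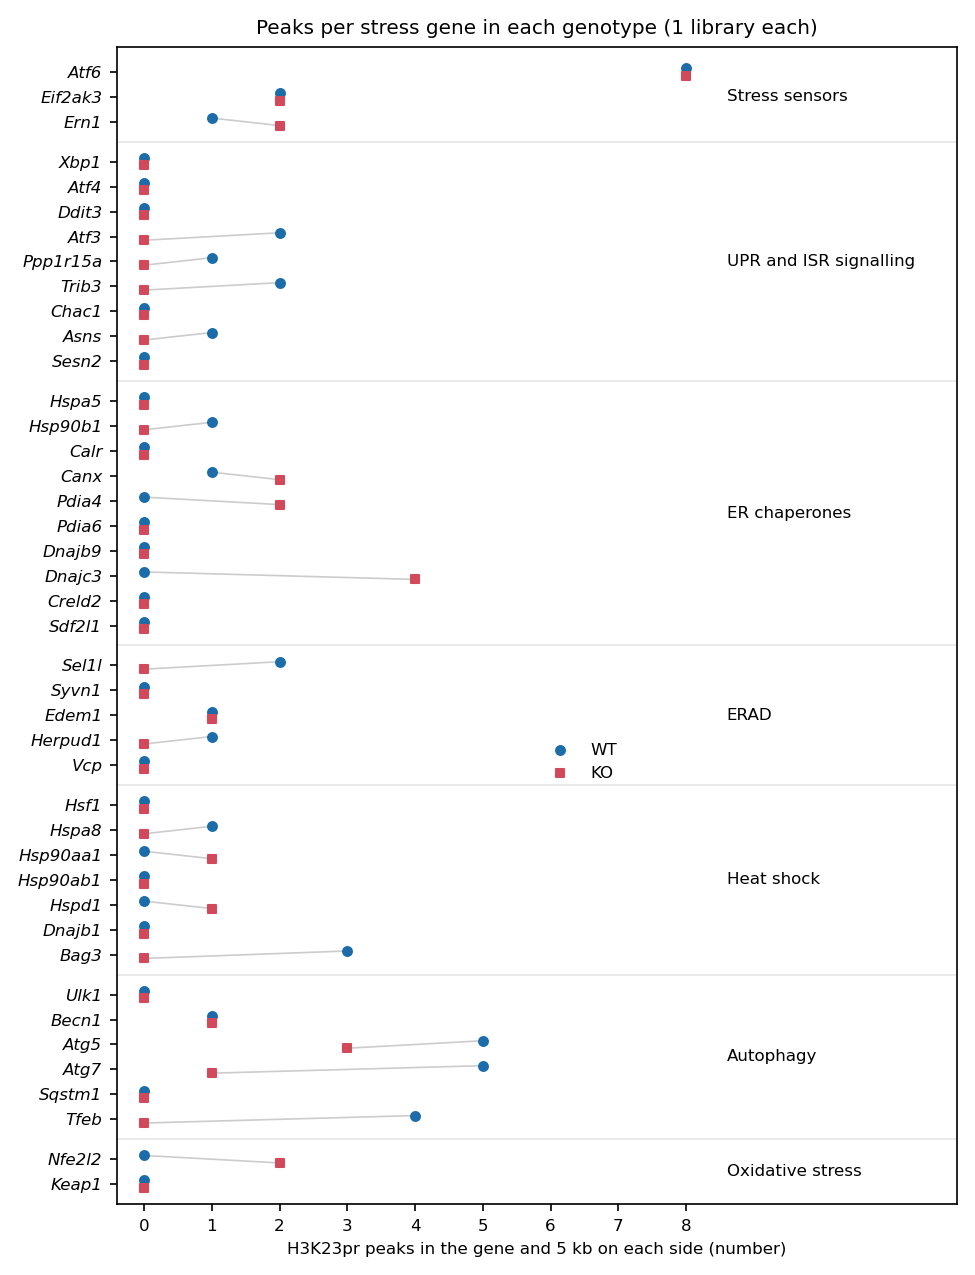
Number of H3K23pr peaks (horizontal axis) in each of the 42 genes with 5 kb on each side, for the WT library (circles) and the KO library (squares), grouped by role. Atf6 has 8 peaks in both, 19 genes have 0 in both, and the 9 UPR and integrated stress response genes have KO values of 0 throughout.

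In all, 42 WT and 30 KO peaks fell in the 42 windows, which together cover 1.61 Mb. That is 26.1 WT peaks per Mb (95% Poisson interval 18.8 to 35.3) against 22.7 over all protein-coding windows, and 18.7 KO peaks per Mb (12.6 to 26.6) against 16.9. Intervals here cover counting error only. The KO to WT ratio of peak numbers was 0.714 (0.432 to 1.17), against 0.744 over all protein-coding genes. The lists also hold a q for each peak, although their headers state that q was not calculated, so how it was made is uncertain. With peaks at a listed q of 0.05 or smaller the ratio turned to 2.5, and that of all genes to 2.00. Long genes held most peaks. The 8 genes with a window of 50 kb or more had 27 of the 42 WT and 20 of the 30 KO peaks, and all 8 held a peak. Among all genes of that length 91.2% held a peak, and they had 74.1% of the WT and 78.7% of the KO peaks in gene windows. Of the 18 genes with a window under 20 kb, which include Hspa5, Calr, Atf4, Xbp1 and Ddit3, 13 had no peak, 4 had a WT peak and 1 had a KO peak. Among all genes with windows that short, 5555 of 7925 had no peak, 21.9% had a WT peak and 11.5% a KO peak.

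**Figure D2:**
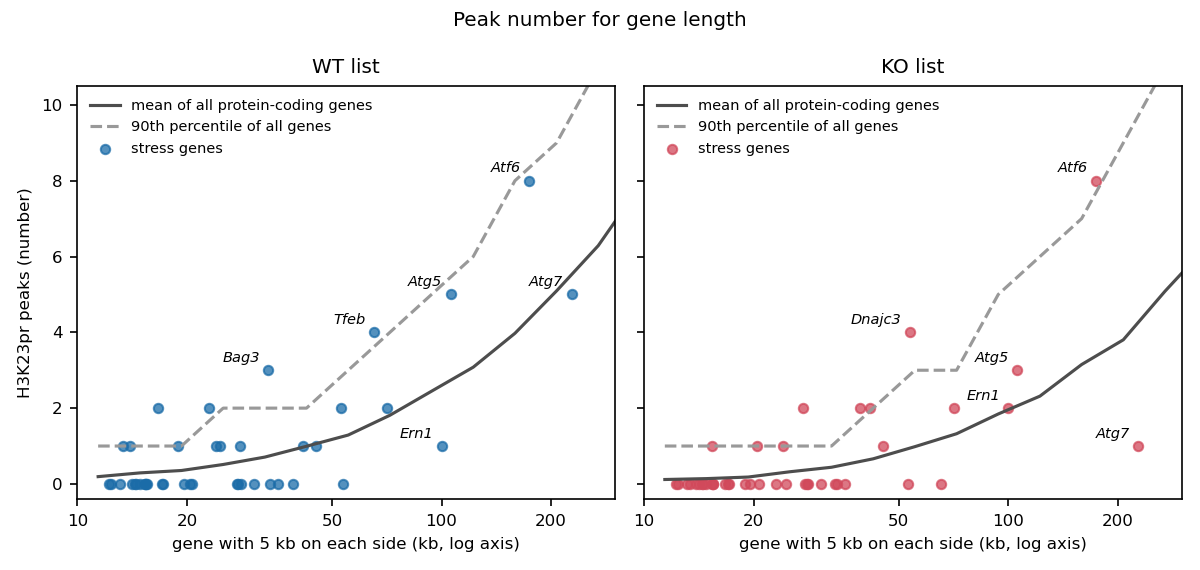
Peak number against the length of the gene with 5 kb on each side (kb, log axis) in the WT list (left) and the KO list (right). Points are the 42 genes, the solid line is the mean and the dashed line the 90th percentile of all protein-coding genes by length class. Bag3 and Tfeb in WT and Dnajc3 in KO lie, among others, above the dashed line, and Atg7 with 1 KO peak lies under the mean.

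The 3 sensor genes all had peaks in both lists, as did 80.2%, 49.6% and 59.5% of genes of the length of Atf6, Eif2ak3 and Ern1. They held 11 WT and 12 KO peaks, where genes of like length had 8.67 and 6.70. Per Mb this was 31.9 in WT (15.9 to 57.0) and 34.8 in KO (18 to 60.7). Atf6 supplied 8 peaks to each, and without it the densities were 17.6 in WT and 23.4 in KO, against 22.7 and 16.9 for all genes.

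Atf6 (chr1:170704457-170868585) encodes the sensor that becomes a transcription factor. From the lower-coordinate end its 8 WT peaks had 6, 6, 5, 5, 5, 4, 4 and 4 fragments at the summit, and its 8 KO peaks had 5, 6, 6, 4, 6, 4, 6 and 4. The heights overlapped fully. Over the 388 genes with a window within 10% of its own, the median was 4 WT and 3 KO peaks, and 14.4% and 9.28% of them had as many as Atf6. The 4 KO peaks of 6 fragments passed a listed q of 0.05, at a −log10 q of 1.38, whereas the 2 WT peaks of 6 fragments had 1.07 and 0.37. The caller's local background under these 4 KO peaks was 0.568 fragments, and under the 2 WT peaks 0.767 and 1.45. The WT peak of 6 fragments in Hsp90b1, at a background of 0.692, also had a −log10 q of 1.07. Equal fragment numbers thus ranked differently in the 2 lists, and the part of the background in this was not tested.

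Eif2ak3 (chr6:70844484-70905241) encodes PERK, the kinase of eIF2alpha. It had 2 WT peaks, of 4 and 7 fragments, and 2 KO peaks, of 5 and 4. The WT peak of 7 fragments, 21.1 kb after the start, was the strongest here, with a fold of 4.62 and 4628 of the 54397 WT peaks at least as strong by caller p. Near the start the lists came close together. A WT peak (chr6:70845938-70846035, 4 fragments) and a KO peak (chr6:70845772-70845867, 5 fragments) lay 70 bp apart, 1471 and 1304 bp after the start.

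Ern1 (chr11:106397620-106487796) encodes IRE1, the kinase and ribonuclease that splices Xbp1. It had 1 WT peak of 6 fragments (fold 3.8) and 2 KO peaks of 5 and 4 fragments (folds 3.38 and 3.19). Of 701 genes of like length, 86.9% had at least 1 WT peak and 47.1% at least 2 KO peaks, the numbers it had itself. The WT peak and the KO peak of 4 fragments were 378 bp apart, 11042 and 11553 bp after the start.

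No WT peak overlapped a KO peak in any of the 42 windows, where 1.03% of all genes had such an overlap. At a distance of at most 1 kb, 3 genes held a WT and a KO peak, against 5.31% of all genes, and these were the 3 sensors. In Atf6 the pair was 344 bp apart, just beyond the lower-coordinate end, with 6 WT and 5 KO fragments. Among genes of like length the share with so close a pair was 16.0% for Atf6, 8.80% for Eif2ak3 and 13.6% for Ern1. Summed over the 42 genes such shares give 1.53 genes. In Atg5 the nearest pair was 1007 bp apart, and in the other 4 genes with peaks of both lists (Canx, Edem1, Becn1 and Atg7) at least 4482 bp.

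**Figure D3:**
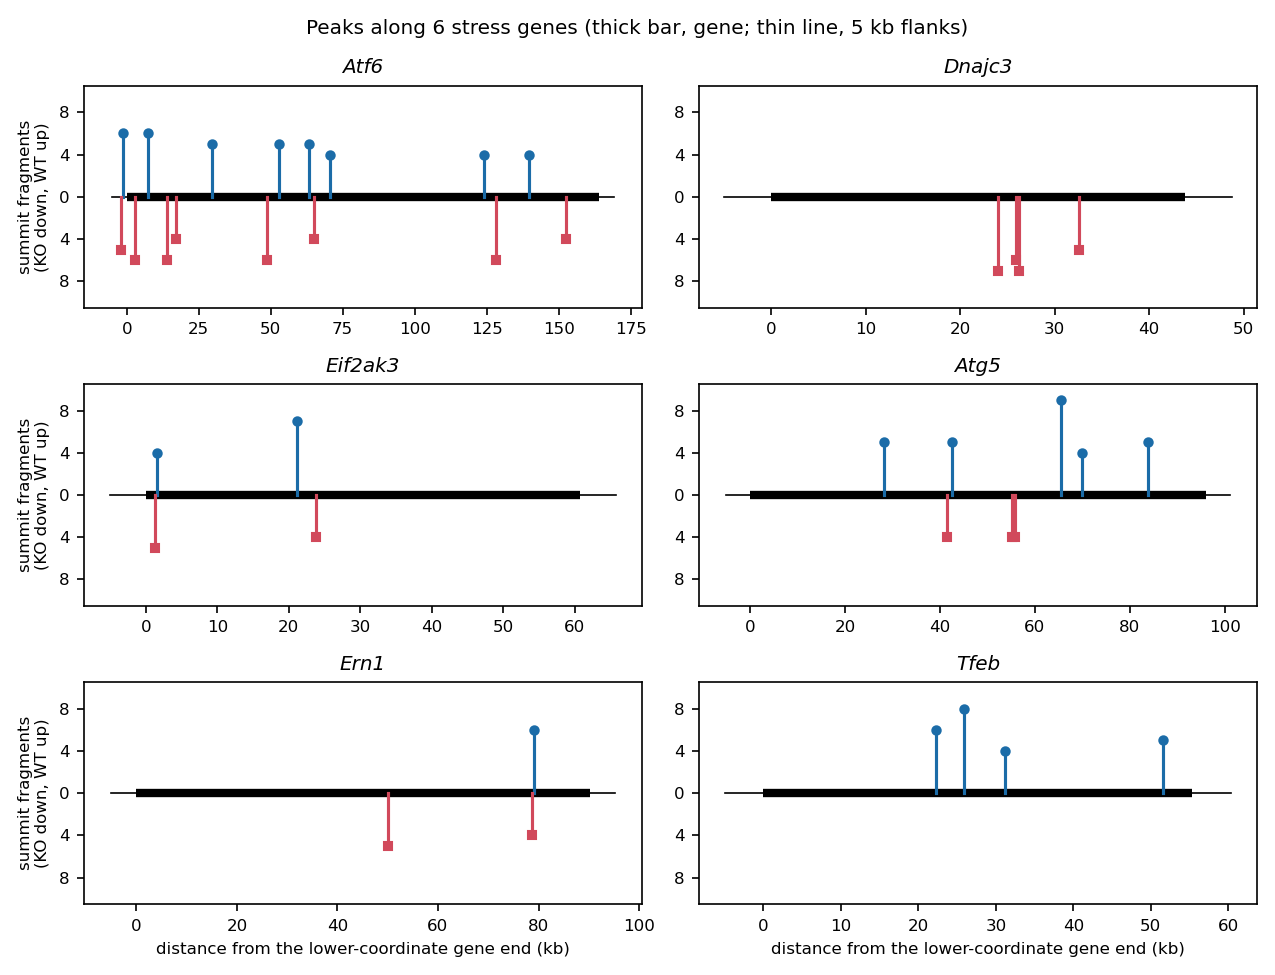
Peaks along 6 genes, by distance from the lower-coordinate gene end (kb); the height of each line is the number of IP fragments at the summit, WT upward and KO downward. Atf6, Eif2ak3 and Ern1 each have a WT and a KO peak less than 1 kb apart, and in Atg5 the nearest pair is 1007 bp apart. The other peaks of Atf6 lie at least 1736 bp from a peak of the other list. Dnajc3 has KO peaks alone and Tfeb has WT peaks alone.

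The 9 genes that carry the signal onward, the transcription factors of the UPR and the integrated stress response (ISR) and their early targets, held 6 WT peaks in 4 genes and no KO peak. Genes of like length had 3.23 and 1.77. Per Mb this was 36.4 in WT (13.3 to 79.1) and 0 in KO (upper limit of the interval 22.4, above the 16.9 of all genes). Trib3 (chr2:152337425-152344060) had 2 WT peaks of 5 fragments each, with folds of 3.45 and 3.52. Both lay upstream of its start, at 236 and 1901 bp, and the farther one also overlapped the noncoding gene Gm14164. Of 2051 genes of like length, 4.00% had as many WT peaks. Atf3 (chr1:191170296-191183333), a stress-induced transcription factor gene, had 2 WT peaks, of 5 fragments near its end and of 6 fragments 2959 bp upstream of its start. Ppp1r15a (chr7:45522917-45526268), encoding the GADD34 subunit that reverses eIF2alpha phosphorylation, had 1 WT peak of 7 fragments (fold 3.96). That peak lay 0.183 kb inside the gene's 3′ end, over a stretch shared with the neighbouring gene Tulp2, and cannot be assigned to either. Asns, encoding asparagine synthetase, had 1 WT peak of 4 fragments. Atf4, Ddit3 (CHOP), Xbp1, Chac1 and Sesn2 had no peak in either list. Their windows were 12.4 to 27.7 kb long, and at such lengths 18.1% to 40.4% of genes had a WT peak and 7.36% to 25.0% a KO peak.

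The 10 ER chaperone and folding genes held 2 WT and 8 KO peaks, where genes of like length had 5.25 and 3.28. Dnajc3 alone had 4 of the KO peaks, and without it the numbers were 2 and 4, against 4.02 and 2.36. Dnajc3 (chr14:118937932-118981702) encodes p58IPK, a co-chaperone of the ER that also inhibits eIF2alpha kinases. Its KO peaks had 7, 6, 7 and 5 fragments, in the second part of the gene between 24.0 and 32.6 kb after the start, and it had no WT peak. From the start outward the gaps between them were 1910, 103 and 6208 bp. The strongest had a fold of 4.70, with 3278 of the 41907 KO peaks at least as strong. Of 1186 genes of like length, 5.90% had as many KO peaks and 2.11% an excess of KO over WT peaks as large. Over all genes 1.64% had at least 4 more KO than WT peaks, and Dnajc3 was the only one of the 42.

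Canx (chr11:50293957-50325673), encoding the lectin chaperone calnexin, was the only ER chaperone gene with peaks in both lists. It had 1 WT peak of 7 fragments (fold 4.64) and 2 KO peaks of 6 fragments (folds 4.46 and 4.46). All 3 passed a listed q of 0.05. The KO peak nearer the start lay 1314 bp after it and the WT peak 16.3 kb after it. Pdia4, encoding a disulfide isomerase, had 2 KO peaks of 5 fragments (folds 3.83 and 3.59) and no WT peak, as many as 7.96% of genes of its length. Hsp90b1, encoding the ER chaperone GRP94, had 1 WT peak of 6 fragments, 14.2 kb after the start and close to its far end. Hspa5, the gene of the master chaperone BiP, and Calr, Pdia6, Dnajb9, Creld2 and Sdf2l1 had no peak in either list. Of the 8 genes with an ERSE shown above, 3 (Hsp90b1, Canx and Dnajc3) had a peak anywhere in the gene or its flanks. At the shares of genes of like length 3.87 of the 8 would have one, and over all genes 56.7% had one.

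The 7 heat shock genes held 4 WT and 2 KO peaks in 4 genes, where genes of like length had 2.98 and 1.66. Over all genes 56.7% held a peak of either list. Bag3 (chr7:128523583-128546981), encoding the co-chaperone that steers HSP70 clients to autophagy, had 3 WT peaks and no KO peak. They had 5, 6 and 6 fragments and folds of 3.52, 4.01 and 4.04, spread from 3.08 to 27.0 kb after the start, and the last lay beyond the gene. Of 1808 genes of like length 4.76% had as many WT peaks and 2.99% an excess of WT over KO peaks as large. Hspa8, encoding the constitutive HSP70, had 1 WT peak of 4 fragments, 3.99 kb beyond the gene. Hsp90aa1 had 1 KO peak of 5 fragments (fold 3.19), and Hspd1, encoding the mitochondrial chaperonin HSP60, 1 KO peak of 4 fragments outside the gene. Hsf1, the master regulator, Hsp90ab1 and Dnajb1 had no peak in either list.

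For the chaperones as a class, the ER genes with the heat shock genes except Hsf1, there were 6 WT and 10 KO peaks in 16 genes. That is 16.6 per Mb in WT (6.09 to 36.1) and 27.7 in KO (13.3 to 50.9). Genes of like length had 7.5 WT and 4.49 KO peaks. Without Dnajc3 both lists had 6 peaks, or 19.5 per Mb. Without Bag3 the WT density was 9.14.

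The genes of degradation held more WT than KO peaks. The 11 ERAD and autophagy genes had 19 WT and 6 KO peaks, or 29.5 per Mb in WT (17.8 to 46.1) and 9.31 in KO (3.42 to 20.3). Genes of like length had 14.9 and 10.8. Their KO to WT ratio was 0.316 (0.103 to 0.822), and the interval included the 0.744 of all protein-coding genes. Without Atg5 the densities were 26.0 in WT (14.2 to 43.6) and 5.57 in KO (1.15 to 16.3). A ratio with interval was not computed for that case. Without Tfeb there were 15 WT and 6 KO peaks, a ratio of 0.4 (0.127 to 1.09). Without Atg7 there were 14 and 5, a ratio of 0.357 (0.101 to 1.05), so both of these intervals included equal numbers.

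Among the ERAD genes, Sel1l (chr12:91806043-91849157), the adaptor of the HRD1 ligase, had 2 WT peaks of 5 and 4 fragments, 1528 bp apart near its far end, and no KO peak. Edem1, which recognises misfolded glycoproteins, had 1 WT peak of 5 fragments (fold 3.25) and 1 KO peak of 5 fragments (fold 3.83), 12.2 kb apart. The WT peak also overlapped the noncoding gene Gm35417. Herpud1, an ER stress-induced ERAD scaffold gene, had 1 WT peak of 5 fragments (fold 3.09). Syvn1, the HRD1 ligase gene itself, and Vcp, encoding the ATPase that extracts ERAD clients for the proteasome, had no peak in either list. Together the 5 ERAD genes held 4 WT peaks and 1 KO peak, where genes of like length had 3.62 and 2.39.

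Among the autophagy genes, Atg5 (chr10:44268322-44364299), needed to lipidate LC3, had 5 WT and 3 KO peaks. Of 678 genes of like length, 17.1% had as many WT peaks, 31.6% as many KO peaks and 33.8% an excess of WT over KO peaks as large. In order along the gene the WT peaks had 5, 5, 9, 4 and 5 fragments, and each of the 3 KO peaks had 4. The WT peak of 9 fragments (chr10:44333782-44333974, fold 5.80) was the highest over all 42 genes. Only 390 of the 54397 WT peaks were at least as strong. It lay 65.6 kb from the lower-coordinate end of the gene, and the nearest KO peak was 9649 bp away.

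Atg7 (chr6:114643127-114860604), the E1-like enzyme gene and the longest of the 42, had 5 WT peaks of 4, 6, 5, 4 and 4 fragments and 1 KO peak of 4. The highest WT peak had a fold of 4.14 and the KO peak 3.19. Genes of its length had a median of 5 WT and 3 KO peaks, so WT was at the usual number and 86.9% of like genes had at least as many KO peaks. All 5 WT peaks stood between 142 and 184 kb from the lower-coordinate end, and the KO peak was 110 kb from the nearest of them.

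Tfeb (chr17:47737037-47792416), the regulator of lysosome and autophagy genes, had 4 WT peaks of 6, 8, 4 and 5 fragments and no KO peak. The peak of 8 fragments had a fold of 4.53. Of 1015 genes of like length 9.36% had as many WT peaks and 2.76% an excess of WT over KO peaks as large. Over all genes 3.61% had at least 4 more WT than KO peaks, and 2 of the 42 did, Tfeb and Atg7. Among the 267 genes of the length of Atg7, 23.6% had an excess of WT over KO peaks as large. Becn1, encoding the PI3-kinase subunit beclin 1, had 1 WT peak of 6 fragments, at its lower-coordinate end over the neighbouring gene Cntd1, and 1 KO peak of 7 fragments (fold 5.10). That KO peak only touched the edge of the 5 kb flank. Ulk1, the initiating kinase gene, and Sqstm1, the gene of the receptor p62, had no peak in either list. Together the 6 autophagy genes held 15 WT and 5 KO peaks, where genes of like length had 11.3 and 8.4.

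Of the 2 oxidative stress genes, Nfe2l2 (chr2:75675513-75704663) had 2 KO peaks, of 6 and 5 fragments (folds 4.32 and 3.38) and 2238 bp apart, and no WT peak. Among 1576 genes of like length 14.3% had as many KO peaks. Keap1 had no peak in either list. Together the 2 genes held 0 WT and 2 KO peaks, where genes of like length had 1.24 and 0.797.

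Peak numbers in other genes of the same pathways, listed by function, are given for comparison. In 69 of them there were 80 WT and 61 KO peaks, at 24.9 per Mb in WT and 19.0 in KO. A WT peak was present in 42 (60.9%, against 47.7% of all genes) and a KO peak in 26 (37.7%, against 33.3%). Both were present in 20 (24.3% of all genes) and neither in 21 (43.3%). These shares are not adjusted for window length. At the density of all genes their windows, 3.22 Mb together, would hold 73.1 WT and 54.4 KO peaks. Their 30 ERAD and autophagy genes held 41 WT and 42 KO peaks, a ratio of 1.02 (0.650 to 1.62), where Atg10 alone had 12 of the KO peaks and the ratio without it was 0.811. Among the 11 described above it was 0.316. Their 23 chaperone genes held 18 WT and 7 KO peaks, a ratio of 0.389 (0.137 to 0.976), against 1.67 (0.549 to 5.58) for the 16 above. Whether the ratios of the 42 and of the other genes differ was not tested.

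**Figure D4:**
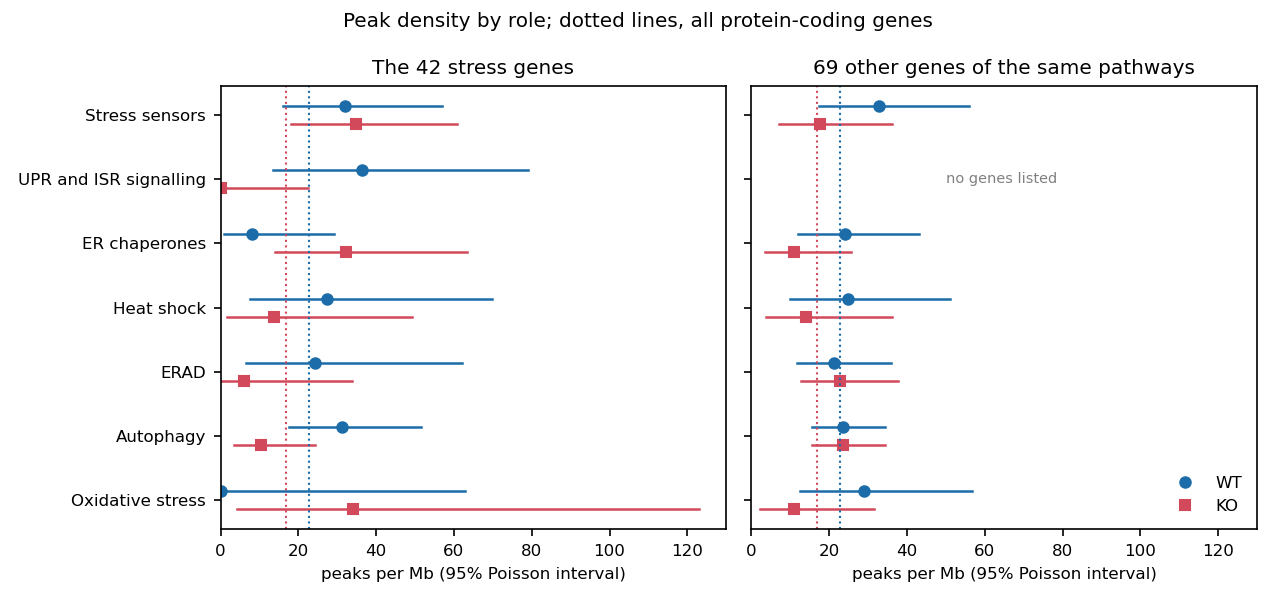
Peaks per Mb of window by role, in the 42 genes (left) and in 69 other genes of the same pathways (right), with 95% Poisson intervals that cover counting error only. Circles are WT, squares KO and dotted lines all protein-coding genes (22.7 in WT, 16.9 in KO). The KO value exceeds the WT value for ER chaperones on the left and is lower on the right.

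The peaks in these genes were as low as the lists in general. Over the 42 WT peaks the summit held 4 to 9 fragments, with a median of 5, and over the 30 KO peaks 4 to 7, also with a median of 5. Both whole lists had a median of 5 and began at 4. A summit of 4 fragments has a Poisson interval of 1.09 to 10.2 and one of 9 fragments 4.12 to 17.1. The intervals of the lowest and the highest peak therefore overlapped. A site missing from a list may still have carried fragments under the caller's threshold. Peaks of at least 7 fragments were found in 5 genes in WT (14.3% of all genes had one) and in 2 in KO (8.16%). The WT genes were Eif2ak3, Ppp1r15a, Canx, Atg5 and Tfeb, and the KO genes Dnajc3 and Becn1. At a listed q of 0.05 or smaller, 4 genes had a WT peak (11.4% of all genes) and 5 a KO peak (16%). Canx was the gene that had both.

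**Figure D5:**
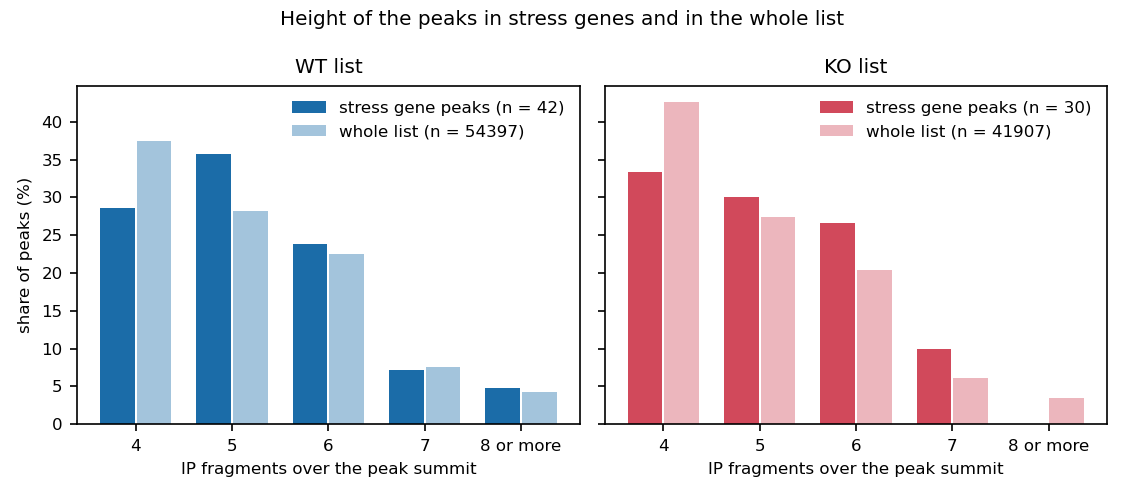
Share of peaks (%) by the number of IP fragments at the summit, for the peaks in the 42 genes (dark bars) and the whole list (pale bars), in WT (left) and KO (right). In both lists most peaks have 4 to 6 fragments, and no KO peak in the 42 genes has 8 or more.

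Most peaks lay inside genes and away from their starts. Of the WT peaks 35 had their midpoint inside the gene and 7 in the flanks, and of the KO peaks 27 and 3. The genes themselves made up most of the window length, and this split is not given for all genes. Within 2 kb of an annotated start, 3 of the 36 genes with a known start had a WT peak (8.22% of all such genes), namely Eif2ak3, Trib3 and Edem1. A KO peak lay so near in 2 (4.59%), Eif2ak3 and Canx. Another peak of the same list stood within 2.5 kb of 6 of the 42 WT peaks, 14.3% against 12.8% of the whole list, and of 8 of the 30 KO peaks, 26.7% against 13.8%. The whole list includes peaks outside genes, and the share over all gene windows was not computed. Within the windows such neighbours were found in Trib3, Sel1l and Atg7 in WT, and in Dnajc3 (gaps of 1910 and 103 bp), Atg5 and Nfe2l2 in KO.

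For the libraries as a whole, the caller kept 13615838 IP fragments in WT and 15468265 in KO, and listed 54397 and 41907 peaks. IP fragments averaged 97 bp for WT and 71 bp for KO. Of 10 hepatocyte marker genes 5 had a WT and 8 a KO peak (6 and 15 peaks), and of 12 markers of other liver cells 7 had a WT and 3 a KO peak (13 and 8 peaks). No peak of either list lay at 2 of the hepatocyte and 5 of the other markers. Over all genes 47.7% had a WT peak, 33.3% a KO peak and 43.3% neither. At the density of all genes the hepatocyte markers would hold 6.33 WT and 4.71 KO peaks. The markers of other cells would hold 12.3 and 9.12. The part of fragment size, depth and cell makeup in the differences above was not tested.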

How the data were processed

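The submitters' processing notes name cutadapt 1.9.3, Bowtie2 2.2.4 and the build mm10. Peaks were called separately in each IP library, with its input as control and a p cutoff of 0.001, by MACS2 2.1.1.20160309, per the file headers. The signal deposited by the authors is the pileup of fragments at each summit. The deposited fold is the ratio of pileup to local background with a pseudocount of 1 on both, and the p and q values deposited by the authors are −log10 values. The headers state that q was not calculated, yet the column holds values, so its making is uncertain. These values are the authors' own and only describe peaks within a list. The background of a peak was computed from its fold and pileup. Peaks were assigned to a gene, from start minus 5 kb to end plus 5 kb, on an overlap of at least 1 bp. Gene positions and promoters came from RefSeq tables of GRCm38.p6, and all 133 listed symbols matched, 2 by a synonym. Genes of like length had a window within 10%, and their mean peak numbers were summed over each group. Densities have exact Poisson and ratios exact conditional (Clopper-Pearson) 95% intervals, computed with scipy 1.17.1. With 1 library per genotype there was no test. Counting was tested on simulated data. The genes and lists were chosen with earlier results of these data known. Named genes had a WT and a KO peak within 1 kb, a peak of at least 7 fragments, a place among the 10 with the most peaks or the 8 with the largest difference in peak number, or a peak in the promoter window, and the 3 sensors were always included. The other genes are given by their peak numbers.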

Additional observations from a re-analysis of the deposited data

How the results depend on the processing

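Of 94 alternative values, 64 stayed within 1.5 times the reported count or inside the reported interval and 30 did not. With 2 kb on each side, the gene body alone, the peak midpoint or without the longest gene, no value left that range. With 2 kb around either gene end only, 7 genes had a WT peak (14.1% of all genes), 4 a KO peak (7.78%) and 2 both (1.45%). The KO density over all 42 genes was then 12.1 per Mb, that of the sensors 83.3 in WT and 83.3 in KO, from 2 peaks each, and that of degradation genes 11.4 in WT and 0 in KO. With peaks of at least 5 fragments, densities over the 42 genes were 18.7 in WT and 12.4 in KO, and 3.10 in KO for degradation genes. At a listed q of 0.05 or smaller, 4 genes had a WT peak (11.4% of all genes), 5 a KO peak (16.0%) and 1 both (4.81%). Densities were then 2.49 and 6.22, against 2.46 and 4.94 over all genes. The KO to WT ratio was 2.5, against 2.00. By class the WT and KO densities were 2.90 and 11.6 for sensors, 2.77 and 11.1 for chaperones and 3.10 and 1.55 for degradation genes. They rest on few peaks, and the KO intervals were 3.16 to 29.7, 3.02 to 28.3 and 0.0393 to 8.65. In both lists the interval of each class included the density of all genes. The strongest 5000 peaks with ties kept were 5072 WT and 10522 KO peaks. With these, 4 genes had a WT peak (11.1% of all genes), 4 a KO peak (14.5%) and 1 both (4.44%). Densities were 2.49 and 4.35, against 2.40 and 4.42 over all genes, and the ratio was 1.75, against 1.84. Fewer peaks enter under these thresholds, so lower densities follow from their construction. The q threshold and the strongest 5000 keep more KO than WT peaks in the whole lists, and the KO to WT order of the 42 genes followed it. Counting WT and KO peaks within 1 kb as shared gave 3 genes in place of 0. Leaving out Atf6, Dnajc3, Bag3, Atg5, Atg7 or Tfeb was chosen after seeing the data. Summits of 4 to 9 fragments set the limit of depth. No paired analysis was possible because each genotype had 1 library.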
